A study of Mus musculus with 10 samples.

Results

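The baseline described here is the RNA of the normal, untreated mouse kidney as read from 2 arrays of total RNA, given as replicates 1 and 2. They are 2 of the 10 arrays of the series. All 22626 probe sets other than the manufacturer's 64 controls were ranked by the mean of both signals, each first divided by the median of its own array. The platform annotation gave 1 gene symbol to 20380 probe sets, and several to 691, and the 1555 it does not list stay unnamed here. The probe sets with 1 symbol covered 12393 genes, and each gene was placed by its brightest probe set. The study behind the arrays also covered contralateral kidneys, whose partner kidney was clamped, and no comparison with those is made here.

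The mice of both arrays were C57/BLACK6 males aged 7 weeks and weighing about 20 g. They were not free of agents: the protocol has 200 µM s4U (4-thiouridine, a uridine analogue that marks new RNA) and 34 µCi 3H-cytidine injected into the abdomen in 1 ml of saline at 0 h and again at 1 h, with kidneys taken at 2 h. Water was the control for s4U, and which mice received it is not given. The other preparations of normal kidneys, from mice described in the same words, were used for comparison: amplified total RNA on 2 arrays and newly transcribed RNA on 1 array. The titles set total RNA apart from amplified total RNA, although the labelling protocol of the total RNA arrays also speaks of linear amplification. RNA came from whole kidney tissue, so fewer cells of a type and less RNA per cell cannot be told apart in any value below.

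The kidney filters plasma in its glomeruli and recovers most of the filtrate along the nephron. The proximal tubule, the most voluminous segment of the cortex, takes back glucose, amino acids, phosphate and filtered proteins, makes glucose, and lives mainly on fatty acid oxidation. The thick ascending limb secretes uromodulin and takes up salt through Slc12a1, the distal tubule and collecting duct adjust salt, water and acid, and the sodium pump of the basolateral membrane drives nearly all of this transport. A probe set's brightness depends on how well its probes bind as well as on how much transcript is there, so the order below is one of brightness and not of copies per cell.

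Both arrays had similar raw scales, with median intensities of 55.9 in replicate 1 and 59.7 in replicate 2 and highest intensities of 6746.9 and 6568.4. Over the 22626 probe sets the log2 intensities correlated at Pearson's r = 0.981 and Spearman's rho = 0.971, given as a description, since probe sets share the array and its depth of signal. The median absolute difference between the arrays was 0.19 on the log2(intensity + 11.8) scale and the 95th percentile was 0.82. Of each array's 100 brightest probe sets 89 were shared, and of the 1000 brightest 942 were. The manufacturer's control probe sets for the 2 ends of Gapdh gave a 3' to 5' ratio of 0.938 and 0.972 on the total RNA arrays, against 5.29 and 4.21 on the amplified arrays and 12.7 on the newly transcribed array. For Actb the ratios were 1.30 and 1.43 on total RNA, against 7.92 and 8.29 on amplified RNA and 12.7 on newly transcribed RNA.

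**Figure D1:**
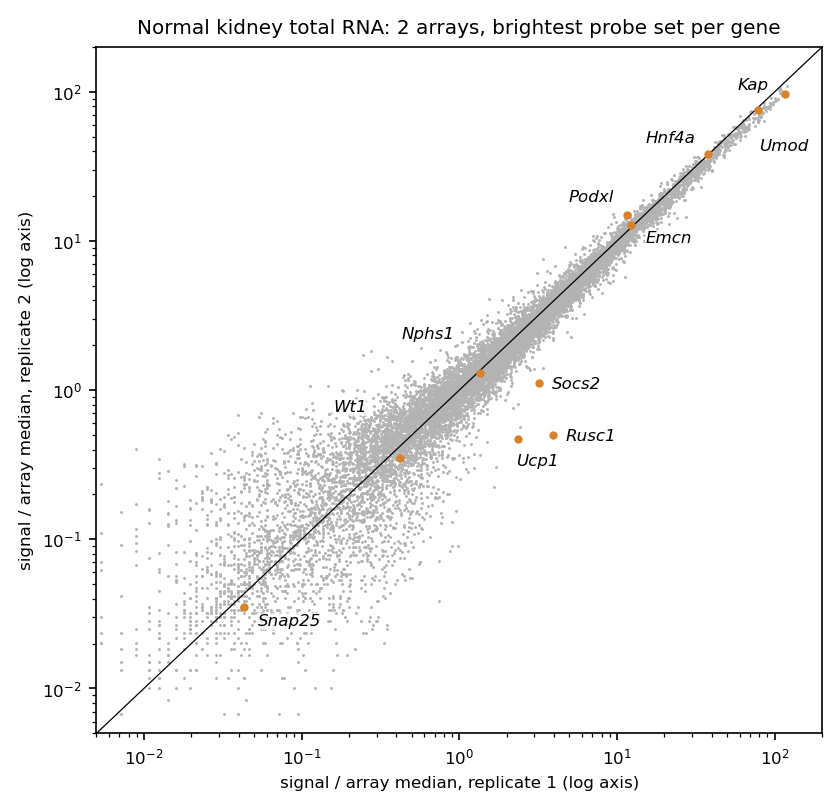
Signal divided by the array median for each of the 12393 genes (brightest probe set) on replicate 1 (horizontal) and replicate 2 (vertical), both on log axes, with the line of equality and 11 genes marked. The cloud is narrow at the bright end, where Kap and Umod lie, and wide among dim genes, while Ucp1, Socs2 and Rusc1 lie off the line on the side of replicate 1.

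Agreement depended on brightness. In the brightest decile of probe sets the median absolute log2 difference was 0.11, and 2 of 2263 probe sets (0.0884%) lay at least 2-fold apart. In the second decile from the bottom the median was 0.38. The third decile from the bottom had the largest share at least 2-fold apart, 247 of 2262 probe sets (10.9%). The dimmest decile looked close, at 0.12, only on the scale with 11.8 added, and reached 0.70 on log2 of the signal alone. Values below about 0.64 array medians, the upper edge of the fourth decile, therefore carry little order, and dim genes named below are given with both arrays' values.

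**Figure D2:**
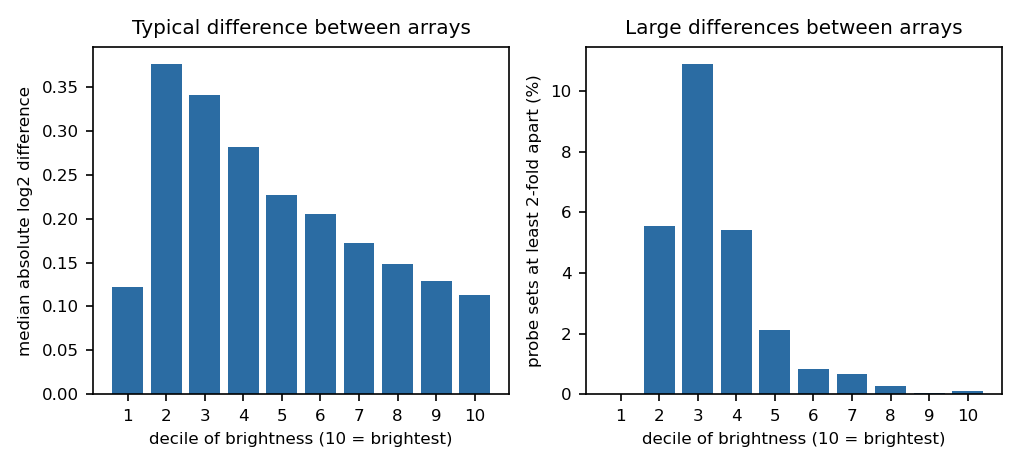
Differences between the 2 total RNA arrays by decile of mean brightness (1 = dimmest, 10 = brightest, about 2263 probe sets each), as the median absolute log2(intensity + 11.8) difference (left) and the percent of probe sets at least 2-fold apart (right). The typical difference falls from 0.38 in the second decile to 0.11 in the brightest, and the dimmest decile is held low by the added constant.

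The signal was spread over many probe sets, which does not give how transcripts are shared among genes. The 10 brightest probe sets held 1.23% of the summed signal in replicate 1 and 1.17% in replicate 2, the 100 brightest 9.43% and 8.92% (mean 9.17% ± 0.36, SD, n = 2), and the 1000 brightest 44.6% and 43.3%. The 100 brightest ranged from 67.98 to 115.36 array medians in their mean, and the first probe set outside lay at 67.48, so the edge of that list separates near-equal values. Among those 100, 75 probe sets had 1 symbol and stood for 62 genes, 18 had several symbols, globin and ribosomal protein probe sets among them, and 7 were not listed. Replicate 1 was the higher in 96 of the 100 (of all 12393 genes 53.6% were higher in replicate 1), with a median log2 difference of -0.17 (replicate 2 minus replicate 1) and a largest absolute difference of 0.40. This count depends in part on the scaling, since the array medians were 55.9 and 59.7 but the mean intensities 229.9 and 230.1. In raw intensity Gpx3 (6495.8 and 5906) stayed higher in replicate 1, while Tpt1 (6090.2 and 6329.7) and Umod (4414.8 and 4548) were higher in replicate 2. At the very top, order within a few places is thus not fixed by these arrays.

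Respiratory chain and ATP synthase genes were the most numerous of the 29 lists among the 100 brightest genes. The lists differ in size, and probe sets with several symbols, such as bright ones of ribosomal proteins, are not counted. Uqcrb, a subunit of respiratory complex III, ranked 1 with 120.7 and 110.0 array medians in replicates 1 and 2. ND5, the subunit of complex I encoded in mitochondrial DNA, had 106.9 and 103.1 array medians. Cytochrome c oxidase, the last complex of the chain, placed Cox6c (100.6 and 90.8), Cox6a1 (103.2 and 87.8), Cox7a2 (99.99 and 86.6), Cox8a (90.6 and 79.1) and Cox6b1 (90.2 and 79.4) among the 40 brightest. ATP synthase was there with Atp5g3 (93.3 and 77.0) and Atp5a1 (78.4 and 75.2), and complex I again with Ndufb9 (79.7 and 73.6). The carriers that feed ATP synthase stood beside them: Slc25a3, the phosphate carrier, had 93.7 and 80.3 array medians, and Slc25a5, an exchanger of ADP and ATP, had 92.9 and 80.7. In all, 21 of the 89 measured members of that list (23.6%) were among the 100 brightest genes, which make up 0.807% of all genes.

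Metabolic genes followed, of which Hadh, Akr1a1 and Slc27a2 were not in the proximal tubule metabolism list. Fbp1, the fructose bisphosphatase of gluconeogenesis, had 97.4 and 83.2 array medians, and Miox, which breaks down inositol, had 96.1 and 82.9. Acsm2, a mitochondrial medium-chain acyl-CoA synthetase, reached 93.1 and 80.3. Hadh, a dehydrogenase of fatty acid oxidation, reached 91.2 and 78.6, Cyp4b1, a cytochrome P450, 87.6 and 76.3, and Akr1c21, an aldo-keto reductase of steroids, 83.4 and 72.9. Akr1a1, an aldehyde reductase, stood at 97.8 and 85.2. Slc27a2, which carries and activates long-chain fatty acids, stood at 83.2 and 73.4. In all of these replicate 1 was the higher.

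Secreted and protective proteins made up another part of the top. Gpx3, the plasma glutathione peroxidase that the kidney releases into blood, had 116.2 and 98.9 array medians (mean 107.6 ± 12.2, SD, n = 2), and its cytosolic relative Gpx1 had 82.7 and 72.2. Fth1, the iron-storing heavy chain of ferritin, had 104.9 and 89.7. Kap, the kidney androgen regulated protein of the mouse proximal tubule, had 117.3 and 96.8. Klk1, the tissue kallikrein that distal tubule cells release into urine, had 86.1 and 84.8, and Umod, the uromodulin of the thick limb, had 79.0 and 76.2. Dnase1, a secreted nuclease, closed the 40 at 79.9 and 71.4, and Napsa, an aspartic protease of lysosomes, stood at 84.2 and 72.3.

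The rest of the 40 had varied roles. Tpt1, the translationally controlled tumour protein, had 108.9 and 106.0 array medians, Eef1a1, the elongation factor that brings aminoacyl-tRNA to the ribosome, 111.9 and 94.98, Rpl41, the smallest ribosomal protein, 109.2 and 103.0, and Rps29, of the small ribosomal subunit, 88.2 and 77.7. Fxyd2, the regulatory gamma subunit of the sodium pump, had 93.3 and 84.4. Pdzk1ip1, a small membrane protein of the proximal brush border, had 94.6 and 90.4, and Igfbp7, a secreted binding protein of insulin-like growth factors, had 108.8 and 98.3. Keg1, named for its expression in kidney, had 88.1 and 79.0, Chchd10, of the mitochondrial intermembrane space, 86.1 and 80.2, and Slc25a39, which brings glutathione into mitochondria, 83.9 and 77.9. Itm2b, a membrane protein, and Nme2, a nucleoside diphosphate kinase, were the other two of the 40. Of the 100 brightest genes 55 were in at least 1 of the 29 lists and 45 in none.

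**Figure D3:**
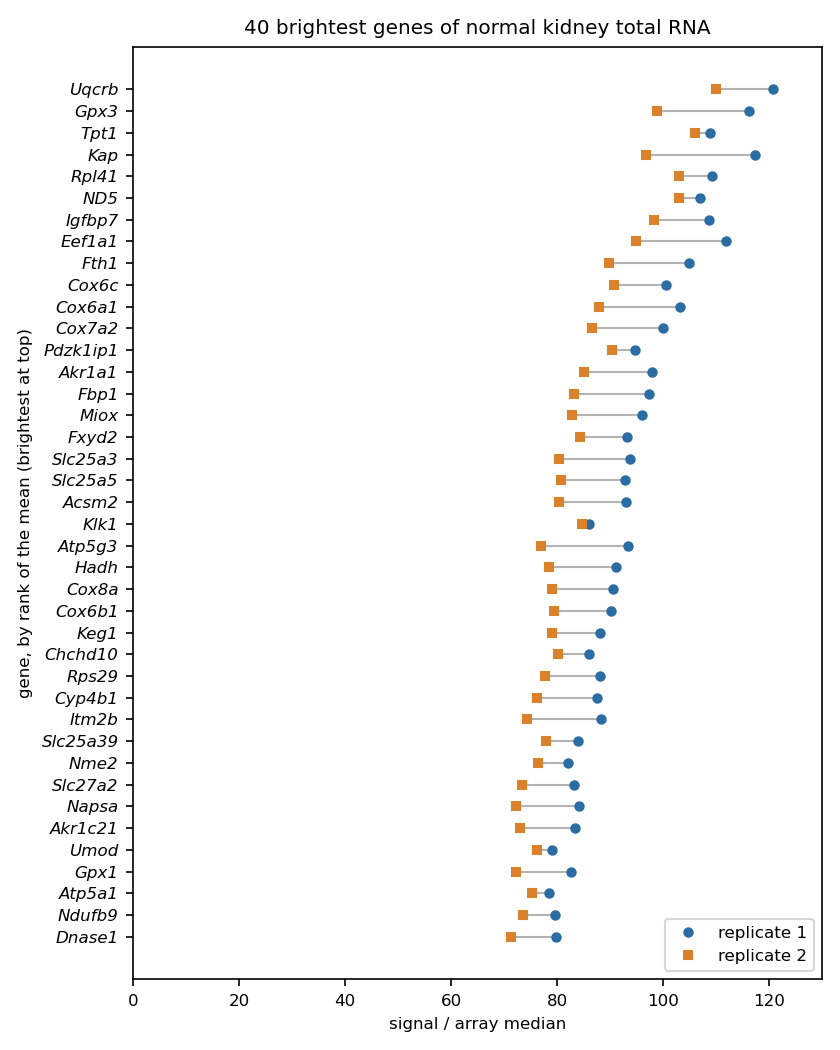
Signal divided by the array median for the 40 brightest genes of normal kidney total RNA, brightest at the top, in replicate 1 (circles) and replicate 2 (squares). All 40 lie above 71 array medians on both arrays and replicate 1 is to the right for every gene, with Klk1 at 86.1 and 84.8 among the closest pairs.

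The rank of a gene rested on its brightest probe set, and probe sets of 1 gene often disagreed. Of the 4956 genes with 2 or more probe sets, 1360 (27.4%) had the brightest at least 10-fold above the dimmest, with a median ratio of 4.07. Among the 1000 brightest genes, which were placed by their brightest probe set, the spread was wider, with 267 of 590 (45.3%) at least 10-fold apart and a median ratio of 7.03. Among the 40 brightest genes 25 had 2 or more, of which 14 had them all in the brightest decile and 7 had at least one below the median of all probe sets. Kap was of the first kind, with a second probe set at 90.2 array medians. Tpt1, Rpl41 and Igfbp7 were of the second kind. The dimmest probe set of Tpt1 had 0.141 and 0.395 array medians in replicates 1 and 2, that of Rpl41 had 0.0984 and 0.233, and that of Igfbp7 had 0.234 and 0.179. The dim value of a gene with 1 probe set therefore has no second reading.

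The starts of 6 bright genes are shown as examples of the gene groups at the bright end. Each was the brightest gene with a promoter in its list, and each line gives the 60 bases before the gene's start in the gene's own direction, from RefSeq on build GRCm38.p6. Capitals mark the motif TATAAA and every CG.
Kap (androgen-responsive, chr6:133853668-133853727, minus strand): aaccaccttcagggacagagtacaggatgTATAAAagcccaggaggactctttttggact
Fbp1 (proximal tubule metabolism, chr13:62888283-62888342, minus strand): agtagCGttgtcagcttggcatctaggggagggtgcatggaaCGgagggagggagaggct
Klk1 (thick limb and distal tubule, chr7:44225300-44225359, plus strand): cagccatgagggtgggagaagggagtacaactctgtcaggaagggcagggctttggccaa
Cox6a1 (respiratory chain, chr5:115348959-115349018, minus strand): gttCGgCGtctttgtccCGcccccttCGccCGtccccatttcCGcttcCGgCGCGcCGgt
Rpl41 (ribosomal proteins, chr10:128549169-128549228, minus strand): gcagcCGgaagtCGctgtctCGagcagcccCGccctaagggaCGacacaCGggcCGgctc
Tpt1 (translation factors, chr14:75845196-75845255, plus strand): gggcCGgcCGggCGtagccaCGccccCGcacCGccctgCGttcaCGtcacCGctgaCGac

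The stretch before Kap held TATAAA with its first base at position -31 from the start and 0 CG, whereas those before Cox6a1 and Tpt1 held 10 CG each and that before Rpl41 held 7. Fbp1 had 2 CG and Klk1 had 0 in the same stretch. Over the full windows of 300 bases (250 before the start and 50 after), the median number of CG was 8 for the proximal tubule transport list (29 of 32 genes matched), 6 for proximal tubule metabolism (25 of 28) and 4 for thick limb and distal tubule (13 of 16). It was 19.5 for the respiratory chain list (74 of 89 matched), 21 for ribosomal proteins (41 of 47) and 19 for the proteasome (31 of 38). Over all 27025 windows of the table, many of genes not on the array, the median was 7, and over the 9887 measured genes with a window it was 18. TATAAA on either strand within 50 bases before the start was found in 4 of the 25 proximal tubule metabolism windows (16%), in 0 of the 74 respiratory chain windows, in 3.78% of all windows and in 3.89% of the windows of measured genes. The 100 brightest genes (79 matched) had a median of 17 CG, and 4 of their windows (5.06%) held TATAAA. Low CG was not particular to tubule lists, as leukocyte genes (14 of 20 matched) had a median of 4 and hepatocyte genes (10 of 12) 4.5. TATAAA was in 1 of 29 proximal tubule transport windows and in 3 of 12 collecting duct windows (12 of 18 genes matched). The leukocyte and collecting duct lists matched 70% and 66.7% of their genes, below the 80% required. As a check, the comparison with measured genes is void, because 79.8% of them matched a window and 80% was required, and a match describes letters only.

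Proximal tubule markers were bright on both arrays. The lists were chosen with earlier results of these data known, so this describes the arrays and does not check their label. Of the 32 measured genes of proximal tubule transport 26 lay in the brightest decile of genes (10% of all genes), with a median percentile of 96.1 and none below the percentile of 74.3. Slc34a1, the sodium phosphate cotransporter of the brush border, had 78.3 and 62.8 array medians in replicates 1 and 2, and Slc22a12, the urate exchanger, had 63.4 and 61.5. Lrp2 (megalin), the receptor for filtered protein, had 35.9 and 28.7, and its partner Cubn had 31.4 and 30.2. The dimmest of the 32 was Slc7a8, an amino acid transporter, at 4.25 and 4.14. Several list members named from here on were picked as familiar markers after their values were seen.

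The 28 genes of proximal tubule metabolism had a median percentile of 97.0, with 22 in the brightest decile. Beside Fbp1, Miox and Acsm2, the other enzymes of glucose production stood lower: Pck1 had 32.9 and 25.3 array medians and G6pc had 23.2 and 27.6. Cyp27b1, which makes active vitamin D, had 5.14 and 4.54 array medians, and Cyp24a1, which degrades it, had 7.77 and 8.59. Agmat was the dimmest, at 1.19 and 1.02. The 7 androgen-responsive genes, which mark the male mouse kidney, had a median percentile of 97.8: Kap, Cyp2j5 (51.2 and 40.7), Odc1 (41.5 and 34.4) and Acsm3 (38.3 and 30.2) lay in the brightest decile. Cyp4a12a, a male-biased P450, stood at 1.40 and 1.76.

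Segments beyond the proximal tubule had bright leading markers and a wide range below them, with 14 of 16 thick limb and distal genes and 16 of 18 collecting duct genes above the median of all genes. In the thick limb and distal tubule list 9 of 16 genes lay in the brightest decile, with a median percentile of 91.8. After Klk1 and Umod came Egf, made by the distal tubule, at 60.4 and 58.2 array medians, Calb1, its calcium-binding protein, at 51.2 and 51.3, and Slc12a1, the furosemide-sensitive salt cotransporter, at 36.0 and 31.5. Cldn19, a tight junction protein of the thick limb, was dimmest at 0.606 and 0.903. In the collecting duct list 2 of 18 genes lay in the brightest decile, with a median percentile of 73.2. These were Car2, the carbonic anhydrase of intercalated and other tubule cells, at 44.3 and 39.9, and Fxyd4, a sodium pump regulator of the duct, at 18.3 and 18.6. Slc26a4 (pendrin) had 9.33 and 10.7 and Aqp2, the water channel that vasopressin controls, had 8.43 and 11.3.

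The podocyte, endothelial, stromal and leukocyte lists had lower median percentiles than the proximal tubule and thick limb lists. The collecting duct list, also of tubule epithelium, had a median of 73.2, close to the endothelial and stromal lists. The 9 podocyte genes had a median percentile of 63.9, led by Podxl, the sialoprotein of foot processes that endothelium also makes, at 11.6 and 15.1 array medians. Nphs1 (nephrin), of the slit diaphragm, had 1.35 and 1.31, and Wt1 was dimmest at 0.424 and 0.350. The 16 endothelial genes had a median of 71.6, with Emcn at 12.3 and 12.9, Plvap at 9.56 and 14.6, and Vwf at 0.131 and 0.0469. The 15 stromal and mural genes had a median of 69.6, with Col3a1 at 16.4 and 14.2. The 20 leukocyte genes had a median of 53.8, with Csf1r, the receptor of macrophage growth factor, at 16.7 and 17.5 and Itgam at 0.166 and 0.229. The number in the brightest decile was 1 of 9, 2 of 16, 3 of 15 and 2 of 20 for these 4 lists, beside 10% of all genes.

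Markers of liver, brain, testis and pancreas were mostly at the dim end. Of 12 hepatocyte genes 0 lay in the brightest decile, with Alb (albumin) at 0.953 and 1.02 array medians and a median percentile of 34.5. Of 12 brain, testis and pancreas genes 1 did: Cela1, an elastase, had 32.8 and 36.8 array medians, while the other 11 had at most 1.19. Red cell RNA was bright, but in probe sets that the annotation lists for several globin genes and that therefore stand for no single gene. A probe set shared by the adult alpha globin genes ranked 2 of all, with 119.6 and 102.1 array medians, and one shared by the beta globin genes ranked 20, with 102.6 and 81.4. Another of alpha globin ranked 86, with 78.1 and 65.2, and all of these were higher in replicate 1. On amplified RNA the first had 54.97 and 50.4 and the beta globin set 86.3 and 66.6. The 5 red cell genes that also have a probe set with 1 symbol had a median percentile of 18.5 in total RNA, led by Alas2, the haem synthesis enzyme of red cells, at 2.88 and 2.86, so that list does not carry the globin signal. The 4 sex chromosome genes were dim on both arrays, with Xist at 0.696 and 0.936 and the Y-linked Kdm5d at 0.694 and 0.940, so they say little about sex in either direction. The 9 tubular injury genes had a median percentile of 38.3. Clu (clusterin) lay in the brightest decile at 26.6 and 27.3, while Havcr1 (KIM-1) had 0.553 and 0.898 and Lcn2 had 0.941 and 0.722.

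**Figure D4:**
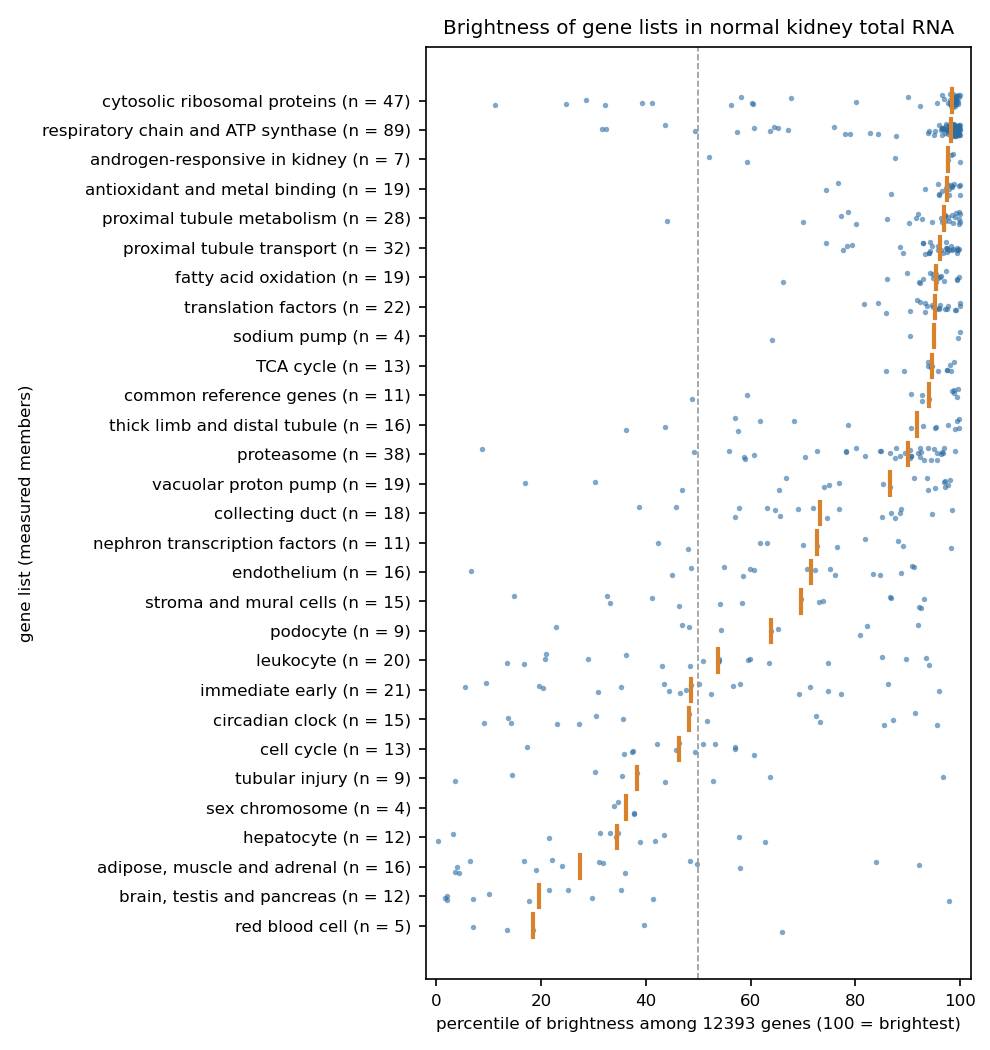
Percentile of brightness among 12393 genes (horizontal, 100 = brightest) of each measured member (points) of 29 gene lists, sorted by their median (bar), with n the members measured. Ribosomal, respiratory chain and proximal tubule lists crowd above the 90th percentile. The collecting duct list and the cell types outside the tubule epithelium spread over the middle, and markers of other organs lie mostly below the 50th. The red blood cell list leaves out the globin probe sets with several symbols, which ranked 2, 20 and 86 of all probe sets.

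The ribosomal and respiratory lists had the highest medians of the 29. The 89 respiratory chain and ATP synthase genes had a median percentile of 98.2, with 73 in the brightest decile, and held 6.44% of the signal summed over genes in replicate 1 and 6.20% in replicate 2. The 47 cytosolic ribosomal genes measured, of 83 listed, had a median of 98.4, with 34 in the brightest decile, and held 3.03% and 2.96%. These values leave out ribosomal probe sets with several symbols, so part of the ribosomal signal is not counted. One of them, for Rps6 and Rps6-ps4, ranked 14 of all probe sets with 100.2 and 94.3 array medians. For comparison, proximal tubule metabolism (28 genes) held 1.73% and 1.63% and proximal tubule transport (32 genes) 1.65% and 1.56%. These shares are sums, so they grow with the number of genes in a list. Of 13 genes of the TCA cycle 11 lay in the brightest decile, led by Mdh2 at 48.8 and 46.0 array medians. Of 19 genes of fatty acid oxidation 16 did, and of 19 antioxidant and metal-binding genes 16 did. The medians of 12 of the 29 lists lay above the 90th percentile. Some lists share genes: Cyp2j5 and Acsm3 are in both the androgen and the proximal metabolism list.

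The dim members of these bright lists included forms known from other tissues, chosen here after their values were seen. The widely expressed Cox4i1 had 79.3 and 69.0 array medians, and Cox4i2, known from lung, had 0.394 and 0.812. Cox6a2, a form of heart and skeletal muscle, had 1.8 and 1.01, the similar Cox8b had 1.30 and 0.866, and Cox6b2, known from testis, had 2.91 and 1.67. Among ribosomal proteins the muscle form Rpl3l had 0.415 and 0.430. Of the proteasome, Psmb7 of the standard particle had 55.5 and 52.5. The immune forms Psmb8, Psmb9 and Psmb10 had 1.75 and 1.98, 1.31 and 1.47, and 2.35 and 2.20, and the testis form Psma8 had 0.199 and 0.0402. Not every dim member was such a form: Rpl14 (0.640 and 0.595), Rpl12 (0.453 and 0.581) and Cox7c (0.556 and 0.697), which all cells use, were dim on both arrays. Here low abundance, poorly binding probes and the leaving out of probe sets with several symbols, as for Rps6 above, cannot be told apart.

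Regulators were mid-range. The 11 nephron transcription factors had a median percentile of 72.7. Of these 1 lay in the brightest decile: Hnf4a, the nuclear receptor of proximal tubule identity, at 37.7 and 38.4 array medians. By the median of its probe sets Hnf4a fell from percentile 98.2 to 88.4, outside that decile. Vdr, the vitamin D receptor, had 11.2 and 9.60, and Esrrg was dimmest at 0.819 and 1.21. The 21 immediate early genes had a median percentile of 48.7, with Jund at 26.5 and 19.0 and Fos at 0.614 and 0.544. The 15 clock genes had a median of 48.3, with Tef at 21.3 and 21.9, Nr1d2 at 14.9 and 10.9 and Cry1 at 0.0411 and 0.208. Placed by the median of its probe sets, Tef fell from percentile 95.6 to 30.1. Of 13 cell cycle genes 0 were in the brightest decile, and Mcm2 led them at 2.91 and 1.66. Of the 7 listed sodium pump genes 4 were measured: the gamma subunit Fxyd2 and the beta subunits Atp1b1, Atp1b3 and Atp1b2. No alpha subunit was among them. Fxyd2 and Atp1b1 (79.2 and 65.3) were among the 100 brightest genes, Atp1b3 was at percentile 90.4, and Atp1b2 had 2.72 and 2.59. Of 19 genes of the vacuolar proton pump, which acidifies urine and endosomes, 9 lay in the brightest decile, led by Atp6v1a at 38.5 and 33.3.

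The 2 arrays are 1 sample against 1 sample, so their differences have no replicate check and no test. Of the 11313 probe sets at or above the median mean signal, 43 (0.38%) lay at least 2-fold apart: 22 (0.194%) were higher in replicate 2 and 21 (0.186%) in replicate 1. Rusc1 differed most, with 3.96 array medians in replicate 1 and 0.499 in replicate 2 (log2 -2.56, replicate 2 minus replicate 1), but its other 3 probe sets had differences of 0.01, 0.34 and 0.96. Ercc2, a DNA repair helicase, differed most the other way, with 0.277 and 1.83 array medians (log2 2.07). Ucp1, the uncoupling protein of brown fat, had 2.37 and 0.474 (log2 -1.92). The 35 genes with such a probe set and 1 symbol had 43 more probe sets, of which 22 differed in the same direction by any amount. Cox5a had one probe set at 24.1 and 8.78 array medians and another at 80.5 and 67.6. Only Tmem268 and Socs2 had 2 probe sets at least 2-fold apart.

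Socs2, a growth hormone-induced inhibitor of cytokine signalling, had 3.21 and 1.12 array medians with one probe set and 2.48 and 0.767 with the other, higher in replicate 1 by log2 values of 1.37 and 1.46. On the amplified arrays of normal kidneys the same probe sets had 2.26 and 0.883, and 5.50 and 1.81, again higher in the array numbered 1. Whether equal numbers mean an equal mouse is not stated in the labels. Over the 21 probe sets higher in replicate 1 of total RNA, 17 were also higher in replicate 1 of amplified RNA, by any amount. Over the 22 higher in replicate 2, 7 were also higher in replicate 2 of amplified RNA. Only 4 of the 43 were at least 2-fold apart in the same direction on both, and over all 11313 probe sets the sign was shared by 54.1%.

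The brighter fat markers were higher in replicate 1, and the others were too dim to give a direction. Of the 16 measured genes of fat, muscle and adrenal, 10 were higher in replicate 1 and 6 in replicate 2, where 53.6% of all genes were higher in replicate 1. The 5 brightest of the 16 were the fat genes Fabp4, Car3, Adipoq, Ucp1 and Retn, all higher in replicate 1, Retn only narrowly (1.40 and 1.29 array medians). The other fat genes were higher in replicate 2: Cidec, a lipid droplet protein, had 0.240 and 0.377 array medians and Lep (leptin) had 0.0465 and 0.0687. Both lay below about 0.64 array medians, where values carry little order. Fabp4, the fatty acid binding protein of adipocytes that small vessels also make, had 16.4 and 10.7 array medians in total RNA, beside 15.5 and 13.9 in amplified RNA. Placed by the median of its probe sets, Fabp4 fell from percentile 92.1 to 64.1. Car3 had 9.08 and 5.20 in total RNA, beside 8.44 and 4.84 in amplified RNA. Adipoq, the hormone adiponectin, had 2.64 and 1.44 in total RNA, beside 1.81 and 1.03 in amplified RNA, and Ucp1 had 1.92 and 0.444 there. Within each preparation the array numbered 1 was the higher for each of the 5 brightest. The list's summed signal was 35.2 array medians in replicate 1 and 22.9 in replicate 2. The part of these genes in the other differences between the arrays was not tested.

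**Figure D5:**
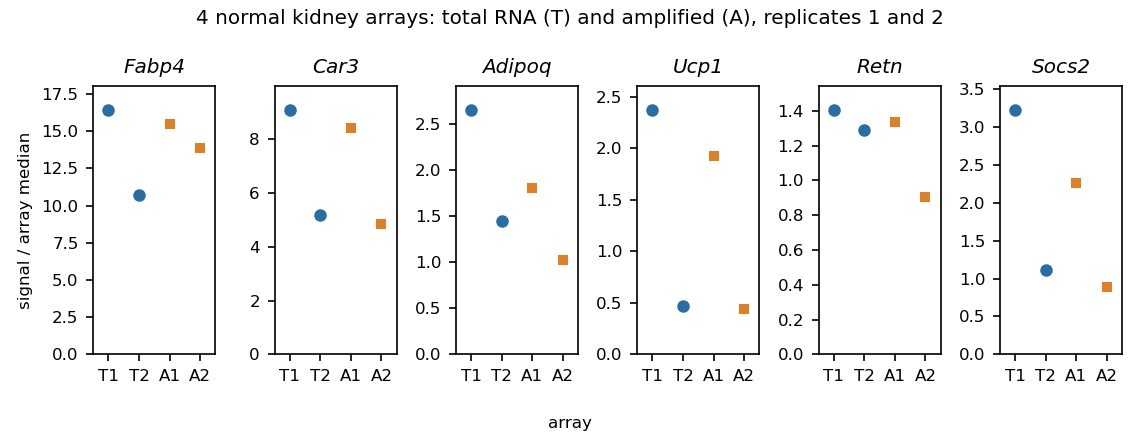
Signal divided by the array median on the 4 normal kidney arrays, total RNA (T1, T2, circles) and amplified RNA (A1, A2, squares), for 5 fat genes and Socs2 (its brighter probe set), each on its own axis from 0. In every panel the array numbered 1 lies above the array numbered 2 within both preparations, most widely for Ucp1 at 2.37 and 0.474 in total RNA.

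The bright end of the profile was also bright in the other preparations of normal kidney. Of the 100 brightest probe sets of total RNA, 58 were among the 100 brightest of amplified RNA, and all 100 lay above its 90th percentile. Of the same 100, 40 were among the 100 brightest of newly transcribed RNA, where 93 lay above the 90th percentile and the lowest was at the 78.1th. Kap was at the 99.98th percentile of genes in total RNA and at the 99.99th and 99.95th percentiles of probe sets in amplified and newly transcribed RNA. Among the 40 brightest genes of total RNA, the brightest probe sets of Cox8a and Chchd10 were at the 79.9th and 80.9th percentiles of newly transcribed RNA, which is 1 array with no replicate. A second Cox8a probe set, ranked 49 in total RNA, was at percentile 92.3 there.

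Total RNA was then set against amplified RNA of normal kidneys in limma, the only comparison with replicates that concerns how far this baseline depends on its preparation. Of 13575 probe sets tested, 3123 (23%) were higher and 3663 (27%) lower in total RNA at an adjusted p under 0.05, 50% in all. The split follows the scaling: with median scaling 2383 were higher and 4501 lower, and the median of all probe sets lay at log2 -0.16 in place of -0.03. Of 45 ribosomal protein genes tested 26 were higher and 4 lower, with a median log2 difference of 0.56, and 23 and 5 were with median scaling. Of 19 fatty acid oxidation genes 4 were higher and 13 lower, with a median of -0.38. Over all 8300 genes tested 20.8% were higher and 28.5% lower, with a median of -0.06. Of 32 proximal tubule transport genes 10 were higher and 9 lower, and with median scaling 6 were higher and 12 lower.

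Some members differed widely between the preparations, and Dpep1 shows how far that can depend on the probe set. Anpep, the aminopeptidase of the brush border, had normalised log2 values of 8.99 and 8.90 in total RNA, against 5.69 and 5.71 in amplified RNA (difference 3.25 ± 0.14, SE, limma adjusted p = 6.28e-08). Dpep1, a brush border dipeptidase, had 8.77 and 8.89 in total RNA, against 10.52 and 10.57 in amplified RNA (difference -1.72 ± 0.10, limma adjusted p = 4.52e-07). The other Dpep1 probe set went the opposite way, with 9.05 and 8.996 in total RNA, against 8.23 and 8.25 in amplified RNA (difference 0.78 ± 0.13, limma adjusted p = 0.000541), so no direction is given for this gene. Ndufa7, of complex I, had 10.66 and 10.80 in total RNA, against 8.11 and 7.69 in amplified RNA (difference 2.83 ± 0.14, limma adjusted p = 2.04e-07), and its other 4 probe sets differed by 1.99 to 3.95 in the same direction. For Anpep, with 1 probe set, and for each probe set of the other 2 genes, the values of the preparations did not overlap. These genes were named as the largest called changes of their lists, so this follows from the choice and adds no support. How many of all probe sets tested did not overlap was not counted. The 3' to 5' ratios of the Gapdh and Actb controls, between 0.938 and 1.43 in total RNA and between 4.21 and 8.29 in amplified RNA, moved with the preparation, and their part in these differences was not tested.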

How the data were processed

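Of the 10 arrays, all one-colour and from Affymetrix, 2 hold normal total RNA. The deposited values are linear signal intensities, 1 for each probe set on an array. The summary of probes and whether the authors scaled arrays or called detection are not given in the sources used. Intensities were divided by the median of each array for ranks and shares, or transformed as log2(intensity + 11.8), 11.8 being the 25th percentile of all values, and centred on the array median for differences, so that folds of dim genes are understated. Symbols came from the platform annotation, checked by gene number against RefSeq (GRCm38.p6), and 0 changed.

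The test used limma 3.58.1 in R 4.3.3 (lmFit, eBayes with trend) on quantile normalised values of all 10 arrays as 6 group means, for probe sets above the 40th percentile of mean signal, with Benjamini-Hochberg adjustment at 0.05. There a gene stands for whichever of its probe sets was brightest over the 10 arrays. The titles call replicates biological. Whether same-numbered arrays share a mouse is not given, and their deviations correlated at r = 0.097 between total and amplified RNA. The number of arrays limits the precision, and p-values measure the spread between these arrays.

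Genes named by rule were the 40 brightest, the 3 brightest and the dimmest of each list, the 8 largest array differences each way, and the largest change of each list each way in limma, of which a part is given. The members and lists were chosen with earlier results of these data known. A list of mitochondrially encoded genes written by their usual prefix matched no symbol, although ND5 is in the annotation. Alternatives were other scalings, pseudocounts, filters, probe set rules and left-out arrays. Python 3.11.15 with pandas 2.3.3, scipy 1.17.1 and matplotlib 3.10.9 was used.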

Additional observations from a re-analysis of the deposited data

How the results depend on the processing

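The 2 arrays' correlation of 0.981 fell to 0.952 with no pseudocount, and lay between 0.981 and 0.983 with quantile normalization, the brighter 11313 probe sets only or 1 probe set per gene. The 100 brightest probe sets held 9.17% of the signal, 13.0% when each gene counted with 1 probe set (fewer values in the sum), and 8.94% and 9.45% on either array alone. The number of lists with a median above the 90th percentile was 12 under each ranking tried. Of 137 named genes, 8 and 11 moved by over 5 percentiles with 1 array left out, 26 with the median of a gene's probe sets, and 0 with quantile normalization. The 43 probe sets at least 2-fold apart became 80 with no pseudocount, 22 with one at the 50th percentile, 587 over all probe sets and 397 at 1.5-fold, as each setting's construction changes what can pass. The 6786 calls between total and amplified RNA ranged from 4988 (without amplified replicate 1) to 7142 (without contralateral amplified replicate 2) when 1 array was left out, and were 6858 with the replicate number as a block, where the numbers do not show pairing. Of 832 values of named genes under alternatives, 20 fell short of the threshold, for Lcn2, Fgg, Cyp27b1, Cela1, Cspg4, Fxyd2 and Lyz1, and 0 reversed. With 1 intensity per probe set and no detection calls, dim values cannot be set against background.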
